A study of Mus musculus with 24 samples.

Results

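Keratins are the filament proteins of epithelial cells, and each filament is built from a type I and a type II keratin that pair with each other. The 10 keratin genes described here, of 18368 genes in the expression table, are a set given by gene symbol and grouped by the layer or state they are known for. The basal keratins are Krt5 and its partner Krt14, which fill the dividing bottom layer of the epidermis, and Krt15, a basal keratin that is also a known marker of the hair follicle bulge. The suprabasal keratins are Krt1 and its partner Krt10, which take over as cells leave the basal layer, and Krt2, a late suprabasal keratin that in the mouse is mostly a gene of ear, tail and sole skin. The stress keratins are Krt6a and Krt6b, which are type II, and Krt16 and Krt17, which are type I. They are known to be switched on at wound edges, while Krt6a and Krt17 are also made in the hair follicle of intact skin.

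RNA was sequenced from whole skin of CD1 mice, an outbred stock, in 24 libraries. Each of 12 mice was wounded at a single site (abdomen, back or cheek, 4 mice each). Every mouse gave a library of unwounded skin of that site and a library of the wound itself. The mice were 7 weeks old, with hair follicles in the resting phase (telogen) per the labels, and carried no transgene. They were shaved before wounding, under anaesthesia and with an analgesic, and no other treatment is named. Wounds were full-thickness, made with a 2 mm punch, and collected after 3 days. Cheek mice had 1 wound and abdomen and back mice had 2, and whether the wounds of a mouse were pooled is not given in the sources used here.

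Levels are FPKM, counts of fragments divided by transcript length and by the size of the library, so genes can be compared within a library. Because each library came from a whole punch, fewer keratinocytes and less RNA per keratinocyte cannot be told apart. The labelled tissue was checked with 12 keratinocyte genes that are not keratins, whose summed level was 1601 to 2469 FPKM in unwounded skin and 2133 to 3891 FPKM in wounds, with 0 of the 12 at zero in all libraries of a group. Of these 12 genes, 1 rose in the wounds of each site, Sfn, a gene of stressed and differentiating keratinocytes. Perp and Sfn had the highest levels of the 12 and led the sums. At an unadjusted p under 0.05 in limma, 1, 5 and 6 of the 12 were higher in abdomen, back and cheek, against 22.15%, 32.14% and 24.41% of all genes. Lower ones numbered 3, 2 and 2, against 22.12%, 21.4% and 21.98%. The wounds held more RNA of neutrophils, with a summed level of 365 to 2411 FPKM for 6 genes against 15.1 to 47.6 FPKM in unwounded skin. Of the 6, 5, 6 and 6 rose in abdomen, back and cheek. Skeletal muscle RNA (7 genes) varied from 449 to 20230 FPKM between unwounded libraries and from 1634 to 6101 FPKM between wounds. In limma 0 of the 7 genes passed at any site. In abdomen, back and cheek 0, 5 and 4 were lower at an unadjusted p under 0.05, against 22.12%, 21.4% and 21.98% of all genes. One library stood apart, the unwounded cheek skin of mouse 4. In it 9 genes of growing hair follicles summed to 5371 FPKM, against 3.63 to 81.9 FPKM in the other unwounded libraries. The resting phase given for the mice does not describe the hair follicle RNA of this library.

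All 10 keratins were found in the mouse annotation (GENCODE M21, build GRCm38), on the minus strand of 2 chromosomes. The 5 type I genes lie on chromosome 11, with Krt14 at chr11:100203162-100207510, Krt16 at chr11:100246091-100248902 and Krt17 at chr11:100256215-100261029. The 5 type II genes lie on chromosome 15, with Krt5 at chr15:101707069-101712905, Krt6a at chr15:101689928-101694305 and Krt6b at chr15:101676023-101680293. Krt6a and Krt6b were 97.8% identical over 1662 aligned coding bases, with a longest identical run of 280 bases. A window of 100 bases, the read length, taken at any position of the Krt6a transcript was found exactly in Krt6b at 643 of 2179 positions (29.5%). Krt14 and Krt16 shared 46 such windows (2.88% of those of Krt14) and Krt5 and Krt6a shared 50 (2.38% of those of Krt5), while Krt14 and Krt17 shared 0. The division of reads between Krt6a and Krt6b is therefore an estimate of the authors' quantification, and their summed level is the firmer value.

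The stretches below are coding sequence from GENCODE M21 transcripts, written 5′ to 3′ on the gene's strand. They show a place where Krt6a and Krt6b are the same and the place where they differ most. The first is 1 stretch of 120 bases in exon 1 of 9 that is the same in both genes, at chr15:101694096-101694215 in Krt6a and chr15:101680071-101680190 in Krt6b.
Krt6a and Krt6b: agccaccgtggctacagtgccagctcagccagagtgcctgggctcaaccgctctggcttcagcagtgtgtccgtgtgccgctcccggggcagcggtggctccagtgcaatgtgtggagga
The window of that length with the most differences between the genes also lies in exon 1, at chr15:101693826-101693945 in Krt6a and chr15:101679801-101679920 in Krt6b, and the capitals mark its 8 differing bases.
Krt6a: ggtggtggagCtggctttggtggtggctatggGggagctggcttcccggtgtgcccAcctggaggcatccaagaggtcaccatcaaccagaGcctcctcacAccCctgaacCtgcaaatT
Krt6b: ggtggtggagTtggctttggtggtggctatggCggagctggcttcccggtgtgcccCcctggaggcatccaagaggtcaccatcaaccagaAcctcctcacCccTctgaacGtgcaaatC
For contrast, the least alike window of Krt14 and Krt16, in exon 5 of 8 of each gene (chr11:100204430-100204549 and chr11:100247108-100247227), held 32 differing bases, again in capitals.
Krt14: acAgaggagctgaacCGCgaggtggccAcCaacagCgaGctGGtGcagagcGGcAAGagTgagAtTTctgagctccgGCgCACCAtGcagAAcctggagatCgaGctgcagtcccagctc
Krt16: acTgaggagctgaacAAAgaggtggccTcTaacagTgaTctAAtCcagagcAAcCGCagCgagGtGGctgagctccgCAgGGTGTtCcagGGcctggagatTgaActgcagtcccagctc

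In unwounded skin the keratins spanned more than 3 orders of magnitude, and their order was much alike at the 3 sites. Krt10 was the most abundant, with means for abdomen, back and cheek of 2821 ± 293, 3041 ± 740 and 1937 ± 253 FPKM (SD, n = 4 mice in each group here and below). Krt5 followed with 1804 ± 190, 1741 ± 146 and 1562 ± 214 FPKM, and then Krt14 with 1611 ± 353, 1361 ± 234 and 1214 ± 212 FPKM. The ranges of Krt5 and Krt14 overlapped at every site, although within each of the 12 unwounded libraries Krt5 was above Krt14 (1.01 to 1.44 times its level). Those of Krt15 and Krt1 also overlapped. Among the stress keratins Krt17 was already a major transcript, at 624 ± 98.9, 408 ± 53.9 and 669 ± 298 FPKM. Krt6a lay about an order of magnitude lower, with 66.8 ± 2.52, 53.8 ± 10.05 and 94.5 ± 57.01 FPKM, Krt16 lower again, with 24.4 ± 11.7, 12.6 ± 4.95 and 13.3 ± 4.21 FPKM, and Krt6b was near the low end of the scale, with 0.405 ± 0.277, 1.54 ± 0.483 and 2.11 ± 1.95 FPKM. At each site the ranges of Krt17, Krt6a and Krt16 were separate from each other. Krt2 was listed at 0 to 1 FPKM in all 24 libraries, so this late suprabasal keratin was close to undetected in these sites and its changes rest on very low values.

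**Figure D1:**
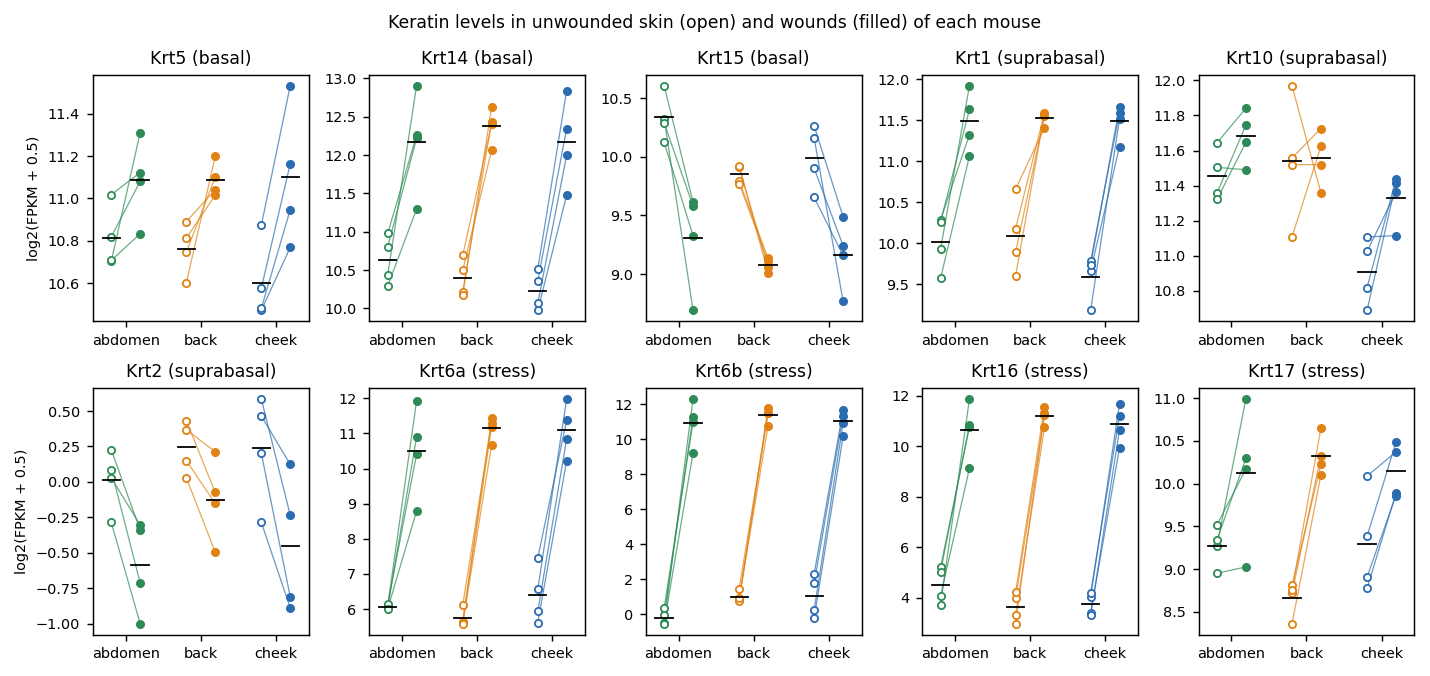
Level of each keratin as log2(FPKM + 0.5) in the 3 sites. Each open point is unwounded skin and each filled point the wound, lines join the libraries of a mouse, short bars are means of 4 mice, and the vertical scale differs between panels. Krt6a, Krt6b and Krt16 were higher in all 12 wounds than in any unwounded library, Krt15 was lower in the wound of all 12 mice, and Krt10 was mixed.

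Whether keratins differ between body sites was asked first in unwounded skin, with limma on log2(FPKM + 0.5) within the 12 unwounded libraries. None of the 10 keratins passed the adjusted p of 0.05 in the comparisons of back with abdomen, cheek with abdomen and cheek with back, where 2.67%, 2.57% and 1.05% of all 13956 tested genes did. At an unadjusted p under 0.05 the counts were 4, 3 and 2 of 10, against 22.01%, 18.99% and 21.55% of all genes. The median of all tested genes was itself shifted on the log2 scale, by -0.12 between back and abdomen and by 0.14 between cheek and back. The site differences below still hold these shifts, and values after median-ratio scaling, which brings them close to 0, are given beside those of back.

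Of the 10 keratins, 1, Krt10, had unwounded cheek libraries that overlapped with neither abdomen nor back. Neither difference passed in limma without scaling between libraries. In cheek Krt10 was listed at 2084, 1806, 2206 and 1652 FPKM in mice 1 to 4. All were below the lowest abdomen library (2558 FPKM) and the lowest back library (2208 FPKM). Groups without overlap were found for 10.6% of all tested genes between cheek and abdomen and for 14.6% between cheek and back. Cheek stood at -0.55 from abdomen on the log2 scale (limma adjusted p = 0.113) and -0.63 from back (limma adjusted p = 0.104), and it passed the threshold from back after median-ratio scaling (-0.78, limma adjusted p = 0.0482). Of a list of 8 granular layer genes, 7 were in the table and Flg was not. In limma 3 of the 7 passed as lower in cheek than in abdomen, as did 1.23% of all genes. Their summed level, over the 7, was 4092 to 6197 FPKM in cheek and 6203 to 10050 FPKM in abdomen. Between cheek and back 0 of the 7 passed in limma, and the sums overlapped (5262 to 7368 FPKM in back). In that comparison 3 of the 7 were lower at an unadjusted p under 0.05, as were 3.19% of all genes. In the wounds Krt10 was again lower in cheek than in abdomen with no overlap (2217 to 2774 FPKM against 2876 to 3668 FPKM, log2 difference -0.35, limma adjusted p = 0.0569), a comparison in which 19.0% of all genes had no overlap. After quantile normalization this difference was -0.016 (limma adjusted p = 0.955). The part of layer composition in this pattern was not tested.

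Krt15 was the other epidermal keratin with separate groups, at 1283, 1114, 1558 and 1252 FPKM in abdomen and 887, 965, 873 and 967 FPKM in back (log2 difference -0.49, limma adjusted p = 0.0946, and -0.36 after median-ratio scaling). Krt17 was likewise lower in back (329 to 449 FPKM) than in abdomen (495 to 734 FPKM), with a log2 difference of -0.61 (limma adjusted p = 0.179, and -0.48 after scaling). Krt6b went the other way, with 1.17 to 2.25 FPKM in back and 0.19 to 0.78 FPKM in abdomen (log2 difference 1.19, limma adjusted p = 0.183, and 1.28 after scaling). These 3 genes were the keratins whose back and abdomen libraries did not overlap, a share of 10 to be read beside 13.3% of all tested genes.

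In the wounds Krt6a, Krt6b and Krt16 rose from minor to abundant transcripts at all 3 sites, while Krt17 rose in back. The wound means of Krt6a, Krt6b and Krt16 lay between 1901 and 2761 FPKM, below those of Krt14 (4866 to 5388 FPKM). Changes were estimated with limma in a paired model of all 24 libraries and called at an adjusted p under 0.001. In abdomen 6 of the 10 keratins passed, against 4.96% of 14423 tested genes. Of these, 5 rose (Krt1, Krt14, Krt16, Krt6a and Krt6b), as did 3.92% of all genes, and 1 fell (Krt15), as did 1.04%. In back 6 passed, against 14.4% of all genes, and all 6 rose, namely the 5 above and Krt17, as did 1443 of the 14423 genes. In cheek 5 passed, against 8.69%, and these were the 5 that rose in abdomen, where 6.5% of all genes rose. No keratin passed as lower in back or cheek, against 4.37% and 2.19% of all genes, and 2 at each site, Krt15 and Krt2, were lower at an unadjusted p under 0.05 in limma, as were 21.4% and 21.98% of all genes. Unwounded and wound libraries did not overlap for 7 keratins in abdomen, 8 in back and 7 in cheek, against 24.4%, 40.4% and 31.7% of all genes.

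Krt6b made the widest move. In abdomen it was listed at 0.2, 0.45, 0.78 and 0.19 FPKM in unwounded skin of mice 1 to 4 and at 4999, 2479, 1986 and 586 FPKM in their wounds. In back it went from 1.17 to 2.25 FPKM to between 1715 and 3543 FPKM, and in cheek from 0.36 to 4.49 FPKM to between 1139 and 3211 FPKM. A gene near the detection floor of intact skin thus reached the level of Krt5 and Krt10 in the wounds, and every wound lay more than 2 orders of magnitude above every unwounded library. The log2 fold changes were 11.12 ± 0.41 (SE), 10.38 ± 0.41 and 9.98 ± 0.41 (limma adjusted p = 2.36e-07, 1.26e-07 and 1.55e-07), and because the start was so low the abdomen value ran from 10.46 to 12.07 over the other settings tried.

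Krt6a, its near copy, started higher and ended at a like level. In abdomen it was listed at 67.6, 65.9, 69.8 and 63.9 FPKM in unwounded skin and at 3890, 1911, 1362 and 442 FPKM in the wounds. In back it was at 49.5, 68.8, 49.4 and 47.6 FPKM and then 2346, 2523, 2758 and 1630 FPKM. In cheek it was at 48.5, 60.6, 93.8 and 175 FPKM and then 1189, 1841, 4041 and 2660 FPKM. The abdomen wounds were the most spread, with mouse 1 highest and mouse 4 lowest, and no wound overlapped an unwounded library. It rose by 4.44 ± 0.39, 5.40 ± 0.39 and 4.71 ± 0.39 on the log2 scale at the 3 sites (SE, limma adjusted p = 2.8e-05, 2.4e-06 and 7.87e-06). Krt6b stood at 0.00296 to 0.0479 times the Krt6a level in unwounded libraries and at 0.795 to 1.46 times in wounds. This ratio rests in part on how shared reads were divided. The sum of both genes rests on that division less. In abdomen the sum went from 64.1 to 70.6 FPKM to between 1028 and 8888 FPKM. In back it went from 49.0 to 71.1 FPKM to between 3345 and 6302 FPKM, and in cheek from 48.8 to 178 FPKM to between 2329 and 7252 FPKM.

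Krt16, the type I partner of the Krt6 proteins, rose at all 3 sites. In abdomen it was listed at 12.7, 36.5, 32.1 and 16.4 FPKM in unwounded skin and at 3761, 1753, 1851 and 558 FPKM in the wounds. In back it went from 7.36 to 18.03 FPKM to between 1732 and 3018 FPKM, and in cheek from 9.41 to 17.9 FPKM to between 983 and 3312 FPKM. Group means differed 81.0-fold in abdomen, 193-fold in back and 156-fold in cheek, and no libraries overlapped. On the log2 scale it rose by 6.15 ± 0.41, 7.59 ± 0.41 and 7.14 ± 0.41 (SE, limma adjusted p = 5.38e-06, 6.08e-07 and 9.07e-07).

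Krt17, unlike the other stress keratins, was already abundant in intact skin. In back it was listed at 449, 420, 433 and 329 FPKM in unwounded skin and at 1197, 1285, 1604 and 1098 FPKM in the wounds, with no overlap, and it rose by 1.66 ± 0.21 on the log2 scale (SE, limma adjusted p = 6.22e-05). In abdomen it was at 619, 649, 734 and 495 FPKM and then 2033, 1256, 1152 and 521 FPKM, and in cheek at 480, 438, 668 and 1089 FPKM and then 930, 946, 1429 and 1324 FPKM. The wound of each of these 8 mice was above its own unwounded skin, but groups overlapped through abdomen mouse 4 and cheek mouse 4. The log2 fold changes were 0.85 ± 0.21 and 0.86 ± 0.21 (SE, limma adjusted p = 0.00892 and 0.00691), which do not pass 0.001. Group means differed 1.99-fold in abdomen, 3.18-fold in back and 1.73-fold in cheek.

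Of the basal pair, Krt14 rose at all 3 sites. It was listed in abdomen at 1386, 1790, 2016 and 1254 FPKM in unwounded skin and at 7661, 4765, 4899 and 2515 FPKM in the wounds. It went from 1153 to 1654 FPKM to between 4286 and 6336 FPKM in back, and from 1007 to 1463 FPKM to between 2850 and 7327 FPKM in cheek. Krt14 therefore had the highest group mean of the 10 keratins in the wounds of every site, although in abdomen and cheek its range overlapped that of the next gene. Its rise on the log2 scale was 1.54 ± 0.22, 1.99 ± 0.22 and 1.93 ± 0.22 (SE, limma adjusted p = 0.000282, 1.94e-05 and 3.32e-05). The call in abdomen was lost without mouse 1, 2 or 3 of that site (limma adjusted p up to 0.0015).

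Its type II partner Krt5 was within 1.44-fold of its unwounded mean at every site. It was listed in abdomen at 1666, 1806, 2073 and 1671 FPKM and then 2539, 2164, 2228 and 1823 FPKM. In back the ranges were 1552 to 1897 FPKM and 2069 to 2349 FPKM, and in cheek 1419 to 1875 FPKM and 1743 to 2961 FPKM. All 12 mice had more Krt5 in the wound than in their unwounded skin, by a small margin. The log2 fold changes of 0.27, 0.33 and 0.50 did not pass 0.001 (limma adjusted p = 0.0731, 0.0285 and 0.00381).

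Krt15, the third basal keratin, was lower in the wounds. In abdomen it was listed at 1283, 1114, 1558 and 1252 FPKM in unwounded skin and at 413, 643, 784 and 765 FPKM in the wounds. In back it went from 873 to 967 FPKM to between 516 and 562 FPKM, and in cheek from 805 to 1227 FPKM to between 436 and 718 FPKM. The wound was lower in all 12 mice and no wound overlapped the unwounded libraries of its site. In abdomen it fell, at -1.03 ± 0.16 on the log2 scale (SE, limma adjusted p = 0.000494), while the changes of -0.77 in back and -0.83 in cheek missed the threshold (limma adjusted p = 0.00171 and 0.0015). The call in abdomen was lost when any 1 of the 4 abdomen mice was left out, with limma adjusted p between 0.00128 and 0.00329.

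Of the suprabasal pair, Krt1 rose at all 3 sites. Krt1 was listed in abdomen at 974, 1247, 1227 and 759 FPKM in unwounded skin and at 3880, 2562, 3175 and 2141 FPKM in the wounds. It went from 777 to 1619 FPKM to between 2716 and 3081 FPKM in back, and from 580 to 879 FPKM to between 2317 and 3244 FPKM in cheek. No groups overlapped, and the wound libraries of the 3 sites reached group means of 2939, 2967 and 2897 FPKM. Krt1 rose by log2 fold changes of 1.47 ± 0.19, 1.45 ± 0.19 and 1.90 ± 0.19 (SE, limma adjusted p = 0.000173, 8.64e-05 and 1.48e-05). Its call in abdomen was lost without abdomen mouse 1, 3 or 4 (limma adjusted p between 0.00133 and 0.00144).

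Krt10, the partner of Krt1, was listed in back at 4008, 2208, 2935 and 3014 FPKM in unwounded skin and at 2625, 3155, 2936 and 3385 FPKM in the wounds, with group means of 3041 and 3025 FPKM. In abdomen the ranges were 2558 to 3198 FPKM and 2876 to 3668 FPKM, and in cheek 1652 to 2206 FPKM and 2217 to 2774 FPKM. Abdomen and back overlapped and cheek did not. The log2 fold changes of 0.22, 0.02 and 0.42 did not pass (limma adjusted p = 0.307, 0.938 and 0.0581). Their 95% intervals ran from -0.13 to 0.58, -0.33 to 0.37 and 0.07 to 0.77, so a change of the size seen for Krt1 lay outside all 3. Krt2 had log2 differences of -0.60, -0.37 and -0.69 on values between 0 and 1 FPKM (limma adjusted p = 0.00628, 0.0442 and 0.00215).

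**Figure D2:**
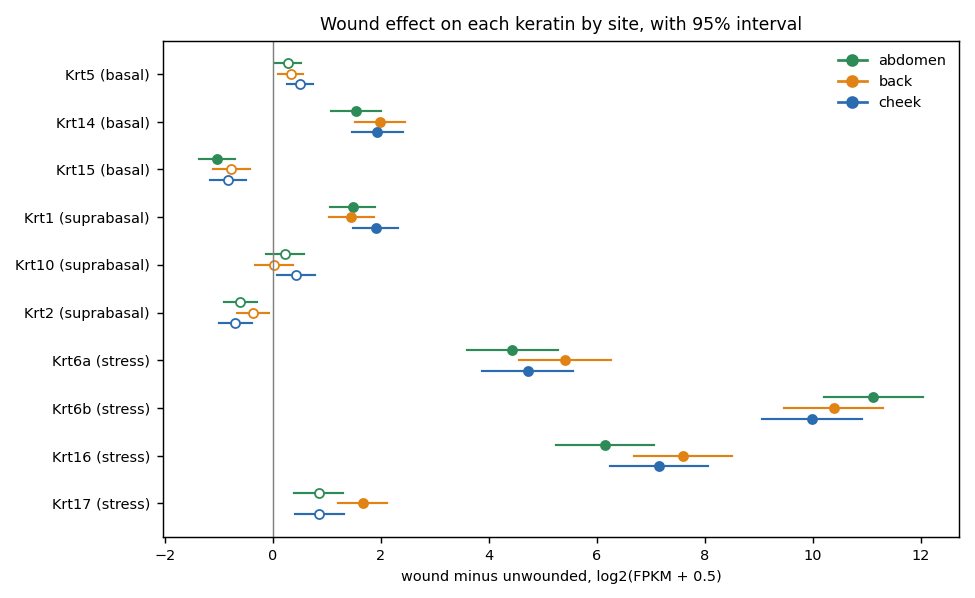
Wound minus unwounded difference of each keratin on the log2(FPKM + 0.5) scale, by site, with 95% intervals from limma over 24 libraries. Filled points have an adjusted p under 0.001. Krt6b sits at 9.98 to 11.12 and Krt16 at 6.15 to 7.59, while Krt5 and Krt10 sit between 0.02 and 0.50 and Krt15 and Krt2 are below 0.

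Whether the response differed between sites was tested with a moderated F test of the 3 wound effects. None of the 10 keratins passed an adjusted p of 0.05 in limma, where 0.0208% of all genes did, and 1 (Krt17) had an unadjusted p under 0.05, as did 12.94% of all genes. The wound effect on Krt17 was larger in back than in abdomen by 0.81 on the log2 scale (95% interval 0.17 to 1.45, limma adjusted p = 0.234, and 1.10 with adjusted p = 0.0302 without abdomen mouse 1), and the difference between cheek and back was -0.80 (-1.44 to -0.16, limma adjusted p = 0.668). For Krt16 the effect in back exceeded that in abdomen by 1.44 (0.16 to 2.73, limma adjusted p = 0.278). Without abdomen mouse 1, whose wound had the highest Krt16 of all libraries, this difference was 2.11 (limma adjusted p = 0.0117). Levels in the wounds themselves also gave 0 of 9 tested keratins for each pair of sites, against 1.27%, 10.8% and 2.5% of all genes in the order used above. At an unadjusted p under 0.05 the only keratin was Krt10 for cheek against abdomen, where 31.57% of all genes had such a p (16.47% and 26.09% in the comparisons of back with abdomen and cheek with back). The intervals were wide for the stress keratins, for example -1.16 to 1.33 for Krt6b between cheek and abdomen wounds.

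Within a site the highest wound exceeded the lowest by 8.80-fold in abdomen, 1.69-fold in back and 3.40-fold in cheek for Krt6a. The 4 abdomen wounds, with Krt6a at 3890, 1911, 1362 and 442 FPKM in mice 1 to 4, had keratinocyte gene sums of 3891, 2947, 2900 and 2133 FPKM. In back the sums of 2758, 2809, 2909 and 2436 FPKM went with Krt6a at 2346, 2523, 2758 and 1630 FPKM, and in cheek the sums of 2177, 2404, 3033 and 2832 FPKM with Krt6a at 1189, 1841, 4041 and 2660 FPKM. At all 3 sites the order of the 4 wounds was the same by both measures. The keratinocyte sums were led by Perp and Sfn, with means of 1539 and 840 FPKM in abdomen wounds, 1423 and 774 FPKM in back and 1339 and 678.5 FPKM in cheek. Sfn itself rose in the wounds of each site, so the sum is not a measure of keratinocyte number alone. Neutrophil gene sums were led by S100a8 and S100a9. These sums had the same order in abdomen (2411, 1212, 716 and 365 FPKM) but not in back (1561, 1340, 1056 and 1183 FPKM) or cheek (1054, 845, 1408 and 578 FPKM). What differences in cell composition contributed to the spread was not tested.

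As a whole, the 10 keratins made up 1.21 to 1.94% of the summed FPKM of unwounded libraries and 2.27 to 5.75% of that of wounds. Within the 10 keratins the basal group held 49.9% ± 3.63 of unwounded FPKM (SD, 12 libraries) and the stress group 7.95% ± 3.25. In the wounds the basal share was 36.3% ± 2.03, the suprabasal share 28.3% ± 6.52 and the stress share 35.4% ± 7.76. The stress share was at most 17.3% in unwounded skin, in cheek mouse 4, and at least 16.8% in wounds, in abdomen mouse 4, so these libraries were the only point where the ranges met. The fall of the basal share was one of proportion, since the basal sum was 3456 to 5646 FPKM in unwounded skin and 5103 to 10724 FPKM in wounds. The suprabasal sum likewise went from between 2386 and 5629 FPKM to between 4951 and 7311 FPKM, and the stress sum from between 387 and 1285 FPKM to between 2107 and 14682 FPKM.

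**Figure D3:**
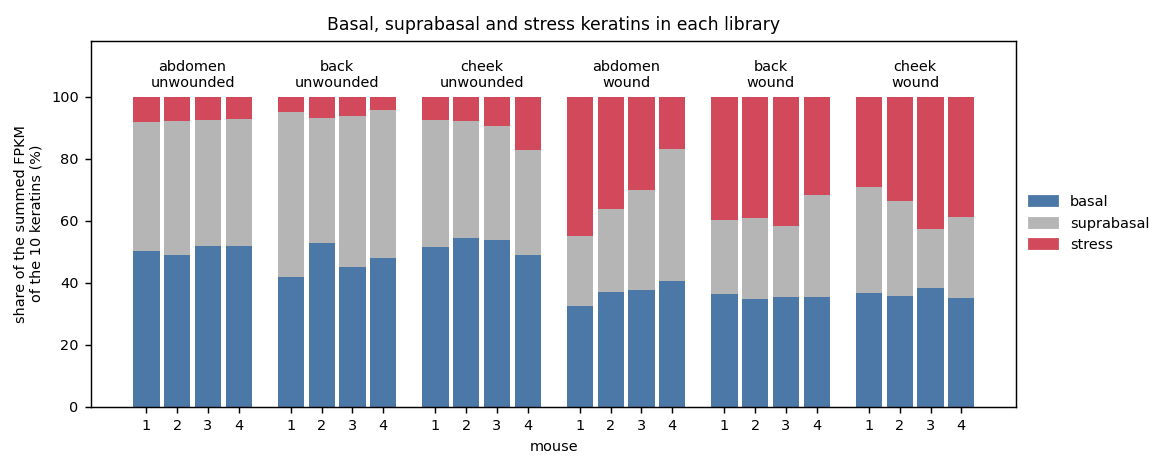
Share of the summed FPKM of the 10 keratins held by the basal, suprabasal and stress groups in each of the 24 libraries, ordered by state, site and mouse. The stress group holds 4.42 to 17.3% of unwounded libraries and 16.8 to 45.0% of wounds.

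A ratio of 2 keratins in the same library does not depend on how much RNA the other cells of the punch added, so partner pairs were also compared within each library. In all, 7 ratios were tested over the 12 mice with an exact two-sided sign-change test, and all 7 changed the same way in 12 of 12 mice, each with p = 0.000488 (adjusted over the 7, 0.000488), which is the smallest value 12 mice can give. The median ratio of Krt5 to Krt14 went from 1.26 (range 1.01 to 1.44) in unwounded skin to 0.448 (0.332 to 0.725) in wounds, a mean log2 change of -1.45 ± 0.32 (SD, 12 mice). Krt1 to Krt10 went from 0.384 (0.297 to 0.515) to 0.998 (0.668 to 1.39), a change of 1.39 ± 0.26. The basal and the suprabasal pair thus both shifted, the basal pair toward its type I partner and the suprabasal pair toward its type II partner, with no overlap between states for either.

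The ratio of Krt6a to Krt16 fell. It had a median of 4.91 (range 1.80 to 9.80) in unwounded skin and 1.01 (0.736 to 1.22) in wounds, a log2 change of -2.11 ± 0.68. Krt6a alone rests in part on the division of reads with Krt6b. The mean sum of both in wounds was 4414, 5075 and 4647 FPKM in abdomen, back and cheek. It was above the Krt16 means of 1981, 2427 and 2067 FPKM. In unwounded skin the mean sums were 67.2, 55.4 and 96.6 FPKM, beside Krt16 means of 24.4, 12.6 and 13.3 FPKM. The ratio of the sum to Krt16 was not tested, and it rose in abdomen mouse 2 and fell in the others. In that mouse Krt6a, Krt6b and Krt16 went from 65.9, 0.45 and 36.55 FPKM to 1911, 2479 and 1753 FPKM. Across layers, Krt1 to Krt5 changed by 1.24 ± 0.34 and Krt10 to Krt14 by -1.60 ± 0.57, so the suprabasal gene gained on the basal gene among type II keratins and lost among type I keratins. Krt6a to Krt5 rose from a median of 0.0374 to 1.02 and Krt16 to Krt14 from 0.0104 to 0.424. Of the ratios that were not tested, Krt17 to Krt14 had a median of 0.385 in unwounded skin and 0.244 in wounds, and Krt15 to Krt14 one of 0.777 and 0.115.

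**Figure D4:**
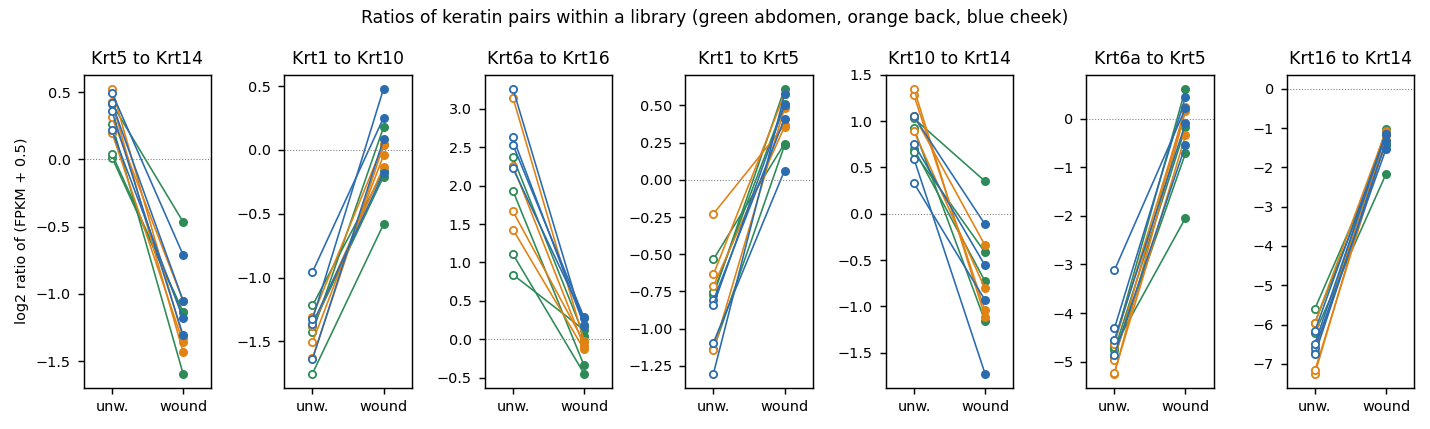
Log2 ratio of 7 keratin pairs in the unwounded (unw.) and wound library of each of 12 mice, with a line per mouse and a dotted line at equal levels where it falls in the panel. All 12 lines run the same way in each panel, and Krt6a to Krt16 ends between 0.736 and 1.22 as a linear ratio.

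The unwounded cheek library of mouse 4, the one with RNA of growing hair follicles, also held the highest Krt6a and Krt17 of all unwounded libraries. Krt6a was 175 FPKM there against 48.5 to 93.8 FPKM in the other cheek mice, and Krt17 was 1089 FPKM against 438 to 668 FPKM. Krt16 was 17.9 FPKM against 9.41 to 15.8 FPKM. Next in hair follicle RNA were back mouse 2, with a sum of 81.9 FPKM and the highest Krt6a of back (68.8 FPKM) but the lowest Krt16 (7.36 FPKM) and the second lowest Krt17 (420 FPKM), and cheek mouse 3, with 26.4 FPKM and Krt6a at 93.8 FPKM. In abdomen, where the sums were 4.62 to 6.35 FPKM, Krt6a was 63.9 to 69.8 FPKM. Without cheek mouse 4, the wound effect in cheek was 4.98 for Krt6a and 1.05 for Krt17 on the log2 scale (limma adjusted p = 4.25e-05 and 0.00387), and the difference of Krt17 between unwounded cheek and back went from 0.63 to 0.36 (0.47 after median-ratio scaling of all libraries). The part of hair follicle RNA in these levels was not tested.

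**Figure D5:**
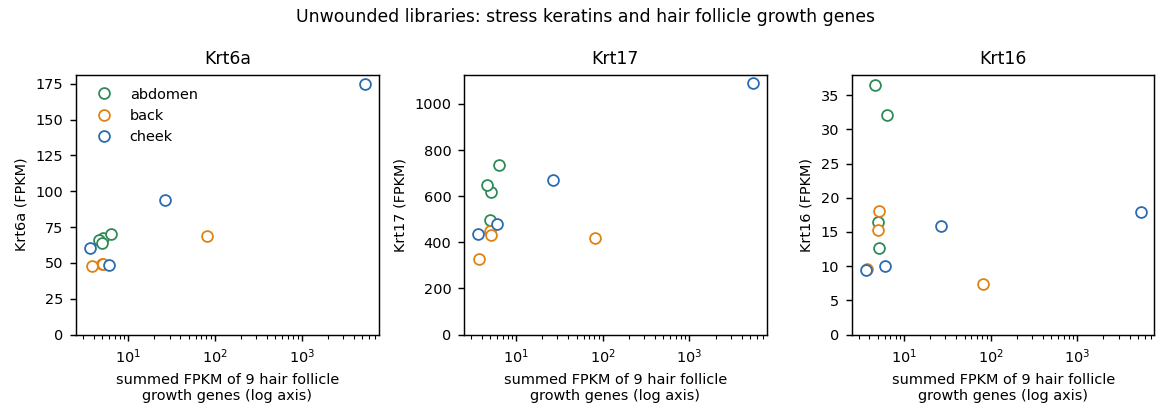
Krt6a, Krt17 and Krt16 (FPKM, linear axis from 0) against the summed FPKM of 9 hair follicle growth genes (log axis) in the 12 unwounded libraries, coloured by site. The point at 5371 FPKM is cheek mouse 4, with Krt6a at 175 and Krt17 at 1089 FPKM, and Krt16 is highest in abdomen.

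None of the other keratins of the table passed as higher in the wounds. Of 43 further genes with a keratin symbol, 23 passed the filter on low values. In limma 0 of these rose at any site at an adjusted p under 0.001. At an unadjusted p under 0.05, 0, 2 and 0 of the 23 were higher at the 3 sites, against 22.15%, 32.14% and 24.41% of all genes. Lower ones numbered 4, 8 and 15, against 22.12%, 21.4% and 21.98%. A single gene fell, Krt222 in back, by -1.13 on the log2 scale (limma adjusted p = 0.000618) from a mean of 1.13 to 0.233 FPKM. The median log2 fold change of the 23 for abdomen, back and cheek was -0.18, -0.37 and -1.19, against -0.01, 0.07 and 0.01 for all genes. The cheek value holds hair shaft and inner root sheath keratins of cheek mouse 4, such as Krt71, listed at a mean of 414 FPKM in unwounded cheek and 0.215 FPKM in cheek wounds (limma adjusted p = 0.105). Krt77, a type II keratin of the same abundance class as Krt1 in intact skin, had means of 1302, 1092 and 964 FPKM in unwounded abdomen, back and cheek and of 696, 417 and 396 FPKM in wounds (limma adjusted p = 0.0778, 0.013 and 0.00851). Krt71 and Krt77 were chosen after their values were seen.

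Of 12 listed genes that tie keratin filaments to cell junctions or to each other, 11 were tested. In abdomen, where 4.96% of all genes passed, 1 rose (Jup, plakoglobin, log2 fold change 0.69, limma adjusted p = 0.000605) and 1 fell (Dst, the hemidesmosomal linker dystonin, -0.70, limma adjusted p = 0.000638). In back 1 of 11, Dst, fell (-0.62, limma adjusted p = 0.000685), against 14.4% of all genes that passed. In cheek 0 of 11 passed in limma, against 8.69% of all genes. At an unadjusted p under 0.05, 3 were higher and 4 lower in cheek, against 24.41% and 21.98% of all genes. Desmoplakin (Dsp), which anchors keratins to desmosomes, had log2 fold changes of -0.03, 0.19 and 0.23 that did not pass.

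Among 16 listed transcription factors known to act on epidermal keratin genes, 2, 4 and 4 rose in abdomen, back and cheek, against 3.92% of all genes in abdomen, 1443 of 14423 in back and 6.5% in cheek. In limma 0 fell at any site, and 3, 4 and 4 were lower at an unadjusted p under 0.05, as were 22.12%, 21.4% and 21.98% of all genes. Stat3, a factor activated by cytokine receptors, and Junb, a subunit of AP-1, rose at all 3 sites. Junb went from means of 64.8, 46.9 and 65.0 FPKM to 166, 176 and 179 FPKM in abdomen, back and cheek, log2 fold changes of 1.32, 1.89 and 1.46 (limma adjusted p = 3.31e-05, 8.59e-07 and 6.77e-06). Stat3 rose by 0.54, 0.61 and 0.50 (limma adjusted p = 0.000192, 3.58e-05 and 0.000232). In back Jun and Fosl1 also rose, and in cheek Fosl1 and Nfe2l2. The median log2 fold change of the 16 was 0.29, 0.46 and 0.35, above the median of all genes at each site.

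Genes whose levels followed each keratin group closely were found by Pearson correlation with the group's mean z-score over the 24 libraries, which share site, state and mouse, so the values are a description. For the stress keratins these were Sprr1b, a cornified envelope protein (r = 0.985), Gjb6, the gap junction protein connexin 30 (r = 0.983), and Fetub, a protease inhibitor (r = 0.983). Sprr1b went from means of 9.28, 11.5 and 17.7 FPKM in unwounded abdomen, back and cheek to 1210, 1084 and 1179 FPKM in wounds. Genes that followed the basal group included Crabp2, a retinoic acid binding protein (r = 0.883), and Ltb4r1, a leukotriene B4 receptor (r = 0.879). The suprabasal group was followed by Cdk5rap3 (r = 0.806), Crtap (r = 0.788) and Adora2b (r = 0.77). The members themselves differed in how well they matched their group's mean, from 0.923 to 0.995 among the 4 stress keratins, while Krt15 had r = -0.42 in the basal group and Krt2 had r = 0.05 in the suprabasal group.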

How the data were processed

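Total RNA of whole skin and wound punches was sequenced by a provider with paired-end reads of 100 bases. Reads were mapped to GRCm38/mm10 with HISAT2 and to transcripts with Bowtie2 (version 2.2.5) and quantified with RSEM (version 1.2.12). The authors deposited FPKM values for 18368 genes in 24 libraries, without scaling between libraries and given to 2 decimals. A second deposited table, of the authors' own DESeq2 comparisons (log2 fold changes and p-values for 9 contrasts), was not used. Groups and mouse numbers were taken from the sample labels, which use the same mouse numbers at each site. That these are 12 different mice is inferred from the study's methods, where a mouse was wounded at a single site.

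The FPKM, to which 0.5 was added, were taken to the log2 scale and fitted in R 4.3.3 by limma (version 3.58.1, with statmod 1.5.0, trend and robust moderation). A gene entered a fit if 4 or more of its libraries reached 0.5 FPKM. Wound effects came from a paired model of all 24 libraries in which each of the 12 mice had its own term, and site differences from the 12 unwounded or the 12 wound libraries. The p values were adjusted by Benjamini-Hochberg over all tested genes, with thresholds of 0.001 for wound effects and 0.05 between sites, as in the study. Ratios were tested by exact sign changes over mice (Python 3.11.15, scipy 1.17.1). The models were tested on simulated data.

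The 10 keratins and all gene lists (other keratins, filament linkers, regulators and cell markers) were chosen with earlier results of these data known. Genes named beside the keratins were those of the other keratins past 0.001 at a site (at most 3 each way), those of the linkers and regulators past 0.001 at all 3 sites, and the 3 genes most like each group, of which 1 is not reported here. Jup, Dst, Dsp, Jun, Fosl1, Nfe2l2, Sfn, S100a8, S100a9, Krt71 and Krt77 were named after their values were seen.

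FPKM hold no counts, so absolute depth, and with it counting error, is unknown. Relative depth, from the smallest steps of 27 genes, was 0.909 to 1.03, a rough estimate. No 2 libraries held identical values. The pairing of libraries is by mouse, per the labels. Across genes, deviations from group means correlated for the 2 libraries of a mouse (mean r 0.322, 0.348 and 0.281 for abdomen, back and cheek, lowest -0.0299), more than for libraries of different mice (-0.108, -0.116 and -0.0958).

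Other cell markers in unwounded skin and wounds summed to 1088 to 2476 and 1003 to 1568 FPKM for sebaceous gland (6 genes), 427 to 1263 and 342 to 787 FPKM for adipocytes (5 genes), 459 to 1003 and 1020 to 2195 FPKM for macrophages (5 genes), 6634 to 17770 and 3970 to 9242 FPKM for fibroblasts (6 genes), and 23.7 to 116 and 76.7 to 143 FPKM for proliferation (6 genes). Alternatives were other pseudocounts, filters, scalings, moderation and model terms, and each mouse left out.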

Additional observations from a re-analysis of the deposited data

Results flagged for a closer look

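In unwounded back skin, Krt6a was listed at 68.83 FPKM in mouse 2 and at 49.5, 49.4 and 47.6 FPKM in the others, a gap of 0.907 of the group's range that set this library apart from the other 3. It was the only one of 60 keratin groups of 4 libraries to stand out this way, and chance alone sets apart about 1 group in 20. The same library had a hair follicle gene sum of 81.9 FPKM against 3.78 to 5.17 FPKM in the other back mice. The part of these cells in the value was not tested.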

How the results depend on the processing

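With each site fitted on its own 8 libraries, the keratins higher in abdomen wounds went from 5 to 0 and those lower from 1 to 0, with unchanged log2 fold changes and limma adjusted p between 0.00234 and 0.00986, while 1 keratin (Krt15) became lower in back. Krt15 also became the 1 keratin lower in back after median-ratio scaling and after quantile normalization. In cheek the count of lower keratins became 1 without a filter and without trend and robust moderation (Krt2 both times), and after quantile normalization (Krt15). Fitting all 24 libraries as 6 groups called 1 keratin, Krt10, between unwounded cheek and both other sites, and median-ratio scaling called 1, Krt10, between unwounded cheek and back. The back wound effect on Krt10 changed sign to -0.0568 with median-ratio scaling, and ran from -0.148 to 0.228 with a mouse left out (-0.148 without back mouse 2 and -0.0318 without back mouse 4). The cause of these changes was not tested.

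With each mouse left out in turn, higher counts ran from 3 to 5 in abdomen (3, namely Krt16, Krt6a and Krt6b, without abdomen mouse 1 or 3), 6 in back and 5 in cheek throughout. Lower counts ran from 0 to 1 in abdomen (0 when any 1 abdomen mouse was left out, or without back mouse 2 or 3), in back (1 without abdomen mouse 1 or cheek mouse 3) and in cheek (1 without abdomen mouse 1). The count of keratins whose response differed between sites ran from 0 to 1 (Krt16, without abdomen mouse 1), and that between cheek and abdomen wounds from 0 to 1 (Krt10, without abdomen mouse 2). Without the block for mouse the counts were again 5 higher and 1 lower in abdomen, 6 and 0 in back and 5 and 0 in cheek, and the paired term changed no other call. A replicate block on the mouse number in the site comparisons gave 0 keratins each. The 7 ratios kept their direction with other pseudocounts and without the pairing, and since all 12 mice changed the same way, leaving out a mouse could not alter it. Unknown depth limits Krt2 and unwounded Krt6b most.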
